A study of Homo sapiens with 33 samples.

Results

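Cells of the triple-negative breast cancer line MDA-MB-231, which the labels spell MDA-MD-231, in which the gene of the mitotic kinase CDK1 had been knocked out (CDK1 KO) were compared with cells of the same line in which CDK7 (CDK7 KO), CDK9 (CDK9 KO) or both (CDK7/9 KO) had been knocked out. The comparison held 2 CDK1 KO libraries, 1 at 72 h and 1 at 96 h, and 6 other knockout libraries, 1 for each genotype at each of these times, out of 33 libraries in the series. They were taken by the genotype and the time in their labels. Another 2 libraries, of cells with an empty vector at 72 and 96 h, served as levels for reference and entered no test of the comparison. The sources used here do not give the event from which the hours were counted, the guides, the place of the cuts, or whether a knockout was 1 clone or a pool. Nothing states that libraries came from separate cultures, so p-values measure the spread between these libraries, which may be technical.

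CDK1 binds cyclins A and B and drives cells from the G2 phase into mitosis. It is held back by the inhibitory kinases WEE1 and PKMYT1 and released by the CDC25 phosphatases. CDK7 has a double role, as the kinase that activates other cyclin-dependent kinases, CDK1 among them, and as a subunit of the general transcription factor TFIIH. CDK9, the catalytic subunit of P-TEFb, frees RNA polymerase II from its pause near the start of genes. MDA-MB-231 cells are known for a high constitutive activity of the inflammatory transcription factor NF-kB. The comparison thus sets a knockout of the mitotic kinase beside knockouts of the kinase upstream of it and of a main kinase of transcription elongation.

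Expression was measured as reads next to the 3' ends of poly(A) RNA, counted per gene. The 8 knockout libraries held 16985219 to 22417327 counts each. Levels are given in CPM, counts scaled to the size of the library and its TMM factor. A gene was called when the quasi-likelihood F test of edgeR gave a Benjamini-Hochberg (BH) adjusted p under 0.05 over all 16658 genes tested, in a model of CDK1 KO or not with time as a block. In that model the spread between libraries includes the differences between CDK7 KO, CDK9 KO and CDK7/9 KO. The 2 libraries of a genotype count as independent in it, so the p-values do not measure how far knockouts differ from each other. Fold changes are on the log2 scale, CDK1 KO over the others, with the standard error implied by the F statistic.

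The targeted genes lay at chr10:60778331-60794852 (CDK1), chr5:69234795-69277430 (CDK7) and chr9:127785679-127790787 (CDK9) on GRCh38. CDK1 had 82.6 and 85.0 CPM in CDK1 KO at 72 and 96 h, against 141 to 183 CPM (median 155) in the other knockouts and 179 and 283 CPM with the empty vector. Both CDK1 KO libraries lay below all the others, and the difference was -0.91 ± 0.09 (edgeR BH-adjusted p = 0.00154). CDK7 had 15.3 and 13.8 CPM in CDK7 KO and 15.7 and 17.2 CPM in CDK7/9 KO, against 45.6 and 47.7 CPM in CDK1 KO and 49.2 and 47.5 CPM in CDK9 KO. CDK9 had 33.4 and 36.5 CPM in CDK9 KO and 34.5 and 36.8 CPM in CDK7/9 KO, against 74.5 and 72.5 CPM in CDK1 KO and 67.3 and 69.8 CPM in CDK7 KO. Each gene was thus lowest in the libraries labelled with its knockout, and none was lost. A 3' tag reads the end of an mRNA, and the place of the cut is not known here, so these levels do not measure the loss of a protein.

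**Figure D1:**
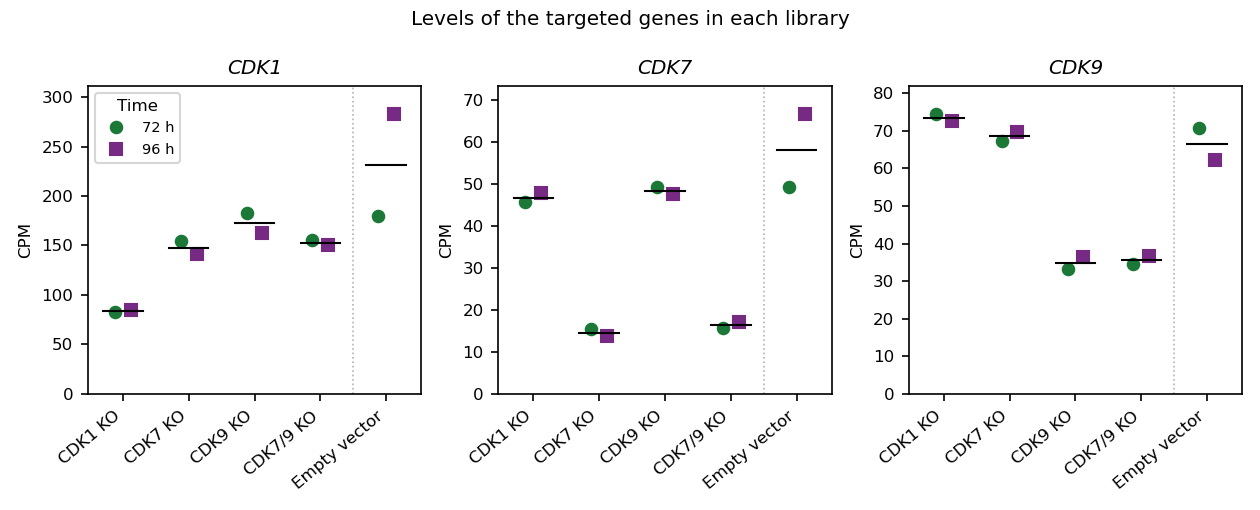
CPM of CDK1, CDK7 and CDK9 in each library at 72 h (circles) and 96 h (squares), with the mean of each genotype as a line and the empty vector to the right of the dotted line. CDK1 sits at 82.6 and 85.0 CPM in CDK1 KO and at 141 to 183 CPM in the 6 other knockout libraries.

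The 14 identity markers of MDA-MB-231 cells summed to 10591 to 10829 CPM in CDK1 KO, against 10572 to 11682 CPM in the other knockouts, with UCHL1 at 0 in all and 1 of the 13 tested called. The 14 markers of MDA-MB-468 cells summed to 162 to 168 CPM, against 123 to 205 CPM, with S100A8 at 0 in all and none of the 7 tested called. For 10 markers of immune cells the sum was 12.9 to 13.7 CPM in CDK1 KO, against 6.23 to 8.56 CPM in the other knockouts and 8.69 to 10.7 CPM with the empty vector. Of the 3 immune markers that could be tested only LYZ was called higher, PTPRC had at most 1.48 CPM in CDK1 KO and at most 1.5 CPM in the others, and MS4A1 and TYROBP were at 0 in all 8. The 13 mitochondrially encoded mRNAs made up 3.94% and 4.01% of the counts in CDK1 KO, 3.9% and 3.72% in CDK7 KO, 5.04% and 5.98% in CDK9 KO, and 5.38% and 5.41% in CDK7/9 KO. The part of these markers and shares in the results was not tested beyond the scaling to mitochondrial mRNAs given with the counts.

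The CDK1 KO libraries had higher mRNA levels of inflammatory and interferon-stimulated genes and of a set of mitotic genes than the other knockout libraries. They had lower levels of genes of 10q, the arm that carries CDK1. Whether these differences come from the loss of CDK1 itself was not tested. In all, 671 genes were called (4.03% of those tested). Of these, 483 were higher in CDK1 KO (2.9% of those tested) and 188 were lower (1.13%). The rises were larger, with 162 of them over 2-fold, against 4 of the falls. Of the 483 rises, 472 were also called, in the same direction, against each of the other 3 knockouts, and so were 187 of the 188 falls. Those tests used the same 8 libraries with a smaller estimate of spread. Genes picked by the first test were thus nearly sure to pass them, and the agreement adds no support. Against the empty vector, both CDK1 KO libraries lay above both empty vector libraries for 391 of the 483 rises (24.6% of all genes tested), and below both for 126 of the 188 falls (21.8% of all genes). These genes were picked by the same CDK1 KO libraries. An excess over the shares of all genes is thus built in and adds no support. With the mitochondrial mRNAs as the scale, the median of all genes moved to 0.27 and the calls were 208 higher and 0 lower.

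The calls lean on both times. Without the CDK1 KO library of 72 h, 17 genes were called, and without that of 96 h, 2, where the remaining CDK1 KO library is assumed to vary like the others. Leaving out 1 of the others gave 1271 and 1879 calls (CDK7 KO at 72 and 96 h), 403 and 369 (CDK9 KO) and 268 and 269 (CDK7/9 KO). Of 80 called genes picked by the rule for naming or added to it, 66 lost their call without the 72 h library and 78 without the 96 h library, and none changed direction under any of the alternatives. The calls that follow carry this limit.

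**Figure D2:**
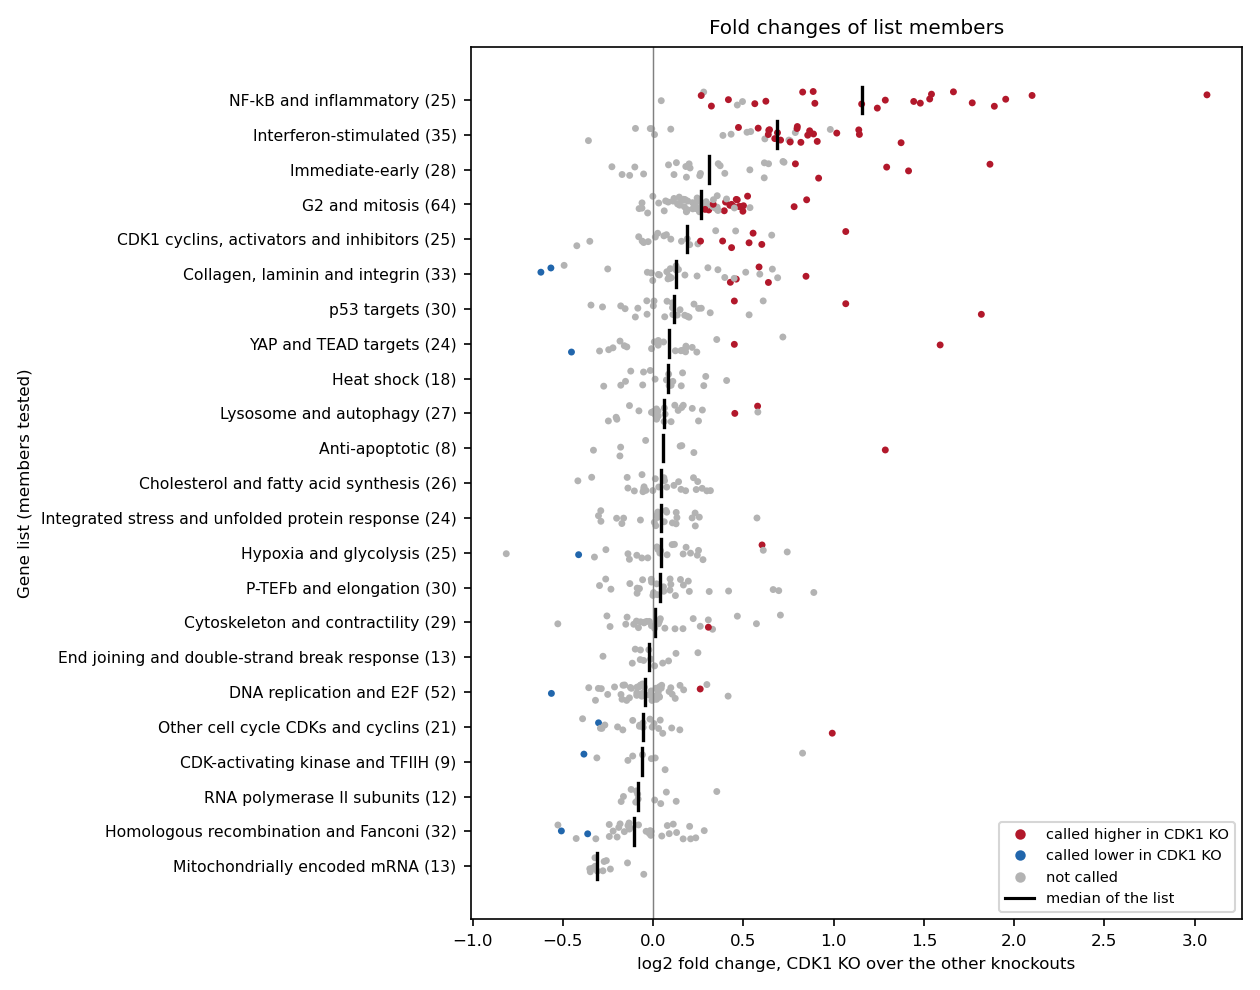
log2 fold change of each tested member of 23 gene lists in CDK1 KO over the other knockouts, with called members in red (higher) and blue (lower) and the median of each list as a black line. The NF-kB and interferon-stimulated lists stand at medians of 1.16 and 0.69, and the mitochondrially encoded mRNAs at -0.31, with none called.

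Genes of the NF-kB and inflammatory response were the group with the largest rise. Of the 25 tested, 21 were called higher in CDK1 KO and none lower, beside 2.9% of all genes called higher. Their median log2 fold change was 1.16, beside -0.001 over all genes. Both CDK1 KO libraries lay above all 6 others for 23 of the 25 (12.9% of all genes), and above both empty vector libraries for 20. Relative to the empty vector library of the same time, the median of the list on the log2(CPM + 1) scale was 0.69 at 72 h and 0.76 at 96 h in CDK1 KO, while in the other knockouts it lay between -0.16 and -0.06 at 72 h and between -0.52 and -0.33 at 96 h. At each time alone the median difference from the 3 others was 0.83 (72 h) and 1.01 (96 h). Without the CDK1 KO library of 72 h 3 of the 25 remained called and without that of 96 h none, with medians of 1.32 and 0.95, without that of CDK7/9 KO at 96 h 14, and without both CDK7/9 KO libraries 10.

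The promoters of these genes are known for kappaB sites. A kappaB-like motif, GGGNNNTTC on either strand, was searched in the promoters of the RefSeq table (GRCh38.p14, 250 bases before to 50 after the start). It was found in 10 of the 20 tested list members with a promoter there, and in 9 of the 18 called ones. It was also found in 16.3% of the 11090 tested genes matched by symbol and in 15.3% of all 27305 promoters in the table. Those of IL6 (chr7:22726950-22727249, plus strand), CXCL1 (chr4:73869143-73869442, plus strand) and TNFAIP3 (chr6:137867009-137867308, plus strand) are shown as those of called members with a match, an interleukin, a chemokine and a feedback inhibitor. Capitals mark the matches, 1 in IL6, 3 in CXCL1, of which 2 overlap on opposite strands, and 2 in TNFAIP3. The promoters of ICAM1 and CXCL8, also called, held no match. The list was chosen for this pathway and the motif after matches of longer forms were seen. The excess over all genes is therefore no test. A match describes the letters and not binding.
IL6: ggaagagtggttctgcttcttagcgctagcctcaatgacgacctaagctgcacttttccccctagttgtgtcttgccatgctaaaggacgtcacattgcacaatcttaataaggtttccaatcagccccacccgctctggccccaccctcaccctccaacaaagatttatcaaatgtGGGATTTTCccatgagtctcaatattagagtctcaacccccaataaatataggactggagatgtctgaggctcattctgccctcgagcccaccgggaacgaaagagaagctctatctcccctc
CXCL1: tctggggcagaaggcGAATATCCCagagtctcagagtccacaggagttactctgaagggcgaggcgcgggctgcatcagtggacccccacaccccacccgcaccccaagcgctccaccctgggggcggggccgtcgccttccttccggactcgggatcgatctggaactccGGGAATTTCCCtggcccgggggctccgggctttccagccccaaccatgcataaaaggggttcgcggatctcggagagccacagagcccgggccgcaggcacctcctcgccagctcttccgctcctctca
TNFAIP3: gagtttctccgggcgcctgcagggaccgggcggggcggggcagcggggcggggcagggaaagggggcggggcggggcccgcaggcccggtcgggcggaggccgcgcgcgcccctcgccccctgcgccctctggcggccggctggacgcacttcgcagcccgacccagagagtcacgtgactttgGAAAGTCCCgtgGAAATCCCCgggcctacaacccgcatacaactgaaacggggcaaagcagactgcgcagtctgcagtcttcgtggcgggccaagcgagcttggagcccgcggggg

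Among the secreted signals, the interleukin gene IL6 had the largest rise among genes with a mean of 10 CPM or more over the 8 libraries. It had 28.6 and 35.2 CPM in CDK1 KO at 72 and 96 h, against 6.22 to 9.41 CPM (median 6.71) in the other knockouts and 9.16 and 16.2 CPM with the empty vector. No library outside CDK1 KO reached its levels, and the fold change was 2.10 ± 0.16 (edgeR BH-adjusted p = 0.000468). The neutrophil chemokine genes CXCL1, CXCL2, CXCL3 and CXCL8 rose by 1.54, 1.44, 1.53 and 1.24. CXCL8 had 47.1 and 51.8 CPM in CDK1 KO, against 16.4 to 28.7 CPM (median 20.0) in the other knockouts and 28.9 and 59.9 CPM with the empty vector. It differed from CXCL1 in that the empty vector library of 96 h was above both CDK1 KO libraries. CXCL1 itself had 17.9 and 21.2 CPM, against 5.46 to 8.61 CPM (median 6.46), with 7.21 and 11.3 CPM in the empty vector libraries.

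The growth factor gene CSF2 had 12.5 and 19.4 CPM in CDK1 KO, against 3.28 to 5.29 CPM (median 4.29) in the other knockouts (1.89 ± 0.20, edgeR BH-adjusted p = 0.00194). The interleukin-1 genes IL1A and IL1B had 12.2 and 15.3 CPM and 9.56 and 13.6 CPM in CDK1 KO, against 1.76 to 5.93 CPM and 2.53 to 4.85 CPM in the others. All 3 genes separated the CDK1 KO libraries from the 6 others and from both empty vector libraries. The chemokine gene CCL20 had the largest fold change of the list, 3.07, at no more than 1.18 CPM in any library. Matrix metalloproteinase genes were called too, MMP3 with 7.60 and 10.4 CPM against 1.98 to 3.41 CPM, and MMP1 with 557 and 789 CPM against 256 to 463 CPM and 417 and 841 CPM with the empty vector. For MMP1 the empty vector library of 96 h was the highest of all.

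Genes that act inside the pathway rose as well. The ubiquitin-editing inhibitor of NF-kB, TNFAIP3, had 40.7 and 52.9 CPM in CDK1 KO, against 12.6 to 21.6 CPM (median 16.3) in the others (1.48 ± 0.18, edgeR BH-adjusted p = 0.00279). BIRC3, a ubiquitin ligase downstream of TNF receptors, had 75.6 and 97.8 CPM, against 28.1 to 45.1 CPM (median 34.0) and 37.9 and 69.0 CPM with the empty vector (1.29 ± 0.15, edgeR BH-adjusted p = 0.00243). Both genes were higher in each CDK1 KO library than in all others, the empty vector included. The inhibitor gene NFKBIA and the subunit genes RELB and NFKB2 rose less, by 0.42, 0.83 and 0.32, while NFKB1 was at 0.28 ± 0.07 and was not called (edgeR BH-adjusted p = 0.0546). ICAM1, the adhesion molecule of leukocytes, had 121 and 130.2 CPM, against 62.3 to 74.8 CPM (median 66.8) in the others and 70.6 and 58.2 CPM with the empty vector (0.90 ± 0.07, edgeR BH-adjusted p = 0.000474). Both CDK1 KO libraries lay well above every other library, and the empty vector library of 96 h was the lowest. PTGS2, which encodes cyclooxygenase 2, had 29.5 and 36.9 CPM in CDK1 KO, against 20.1 to 28.4 CPM, and was not called (0.47 ± 0.14).

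**Figure D3:**
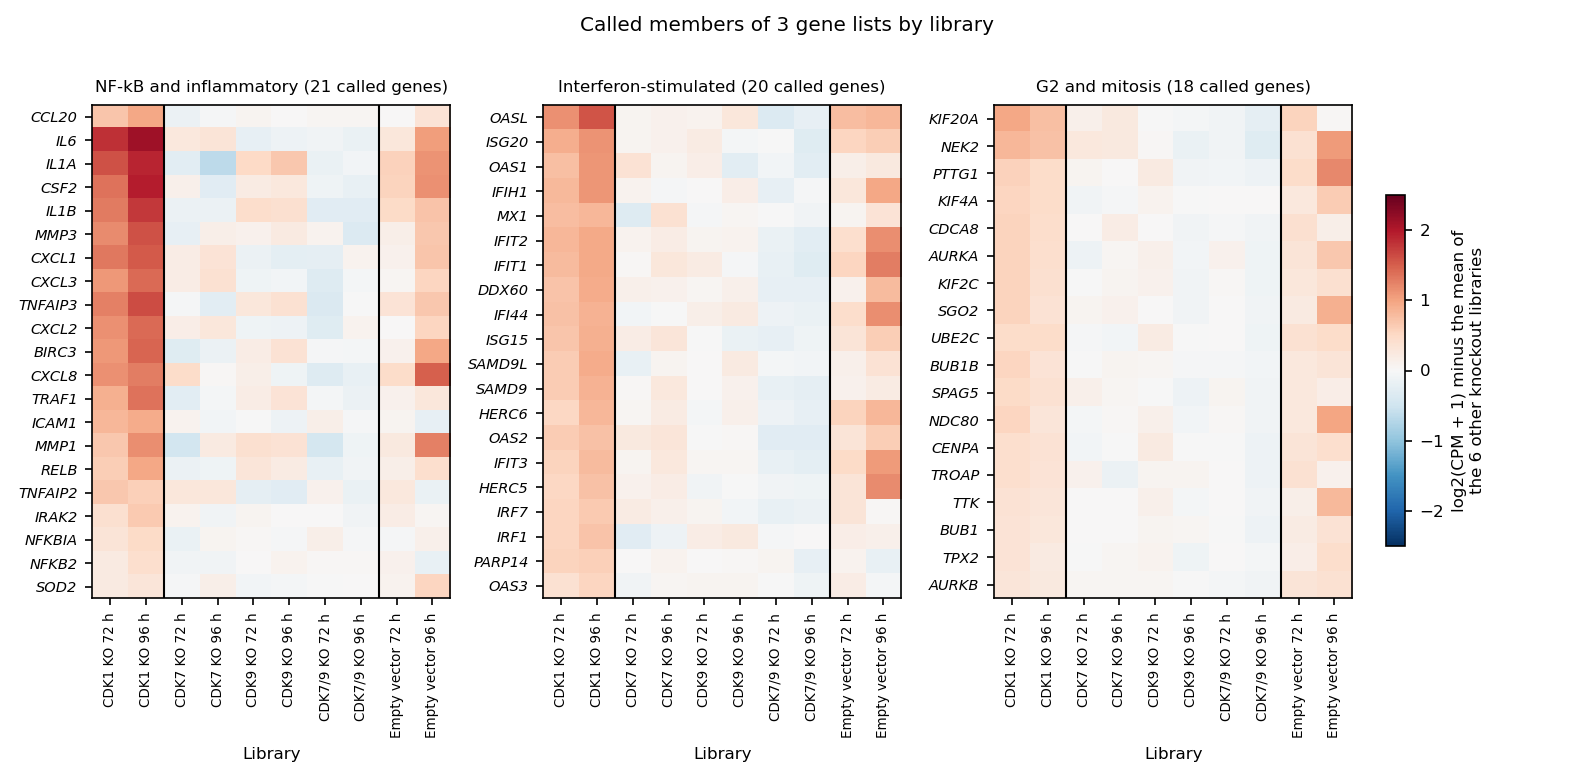
log2(CPM + 1) of the called members of 3 gene lists in each library, minus the mean of the 6 other knockout libraries, with CDK1 KO at the left and the empty vector at the right of each panel. The NF-kB genes are highest in CDK1 KO for most rows, while many mitotic genes are at least as high in the empty vector library of 96 h.

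Interferon-stimulated genes, whose products sense and restrict viral RNA, were the second group. Of 35 tested, 20 were called higher and none lower, with a median of 0.69. Both CDK1 KO libraries were above all 6 others for 26 of the 35, and above both empty vector libraries for 19. For 13 of the 35 all 6 other knockout libraries lay below both empty vector libraries (7.96% of all genes). The median relative to the empty vector of the same time was 0.28 and 0.22 in CDK1 KO at 72 and 96 h, and between -0.42 and -0.11 in the 6 others, so CDK1 KO stood above the empty vector and the other knockouts below it. Without the CDK1 KO library of 72 h 1 of the 35 was called and without that of 96 h none, with medians of 0.78 and 0.55, without both CDK9 KO libraries 12 and without both CDK7/9 KO libraries 11. Scaled to the mitochondrial mRNAs 10 were.

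The response element of interferon-stimulated genes is a repeat of GAAA. The motif GAAANNGAA was found on either strand in 18 of the 27 tested list members with a promoter in the table, and in 12 of the 16 called ones. It was found in 6.55% of the tested genes matched and in 8.29% of all promoters, and as for kappaB this excess is no test. The promoters of IFIT3 (chr10:89327747-89328046, plus strand) and ISG15 (chr1:1013247-1013546, plus strand) are shown as those of an RNA-binding effector and of the ubiquitin-like modifier, with the matches in capitals. IFIT3 holds 2 matches and ISG15 holds 3, which overlap in a row. None of the motifs searched contains another, and matches of different motifs may overlap.
IFIT3: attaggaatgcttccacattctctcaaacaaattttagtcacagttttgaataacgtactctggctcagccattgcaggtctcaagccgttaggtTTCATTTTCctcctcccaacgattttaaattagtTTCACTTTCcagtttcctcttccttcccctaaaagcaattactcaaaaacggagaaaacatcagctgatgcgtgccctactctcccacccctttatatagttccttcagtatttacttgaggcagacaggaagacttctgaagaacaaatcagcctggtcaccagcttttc
ISG15: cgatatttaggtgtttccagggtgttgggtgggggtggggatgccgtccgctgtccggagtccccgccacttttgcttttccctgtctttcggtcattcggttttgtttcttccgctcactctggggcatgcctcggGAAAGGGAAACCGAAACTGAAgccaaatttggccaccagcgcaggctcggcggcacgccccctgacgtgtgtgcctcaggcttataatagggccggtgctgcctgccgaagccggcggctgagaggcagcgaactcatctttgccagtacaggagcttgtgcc

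OASL, a relative of the 2'-5' oligoadenylate synthetases, had 67.4 and 91.1 CPM in CDK1 KO, against 23.4 to 36.9 CPM (median 31.8) in the others and 51.8 and 54.2 CPM with the empty vector. The empty vector libraries stood between CDK1 KO and the other knockouts, and the fold change was 1.37 ± 0.14 (edgeR BH-adjusted p = 0.00154). IFIH1, which encodes the RNA sensor MDA5, had 19.0 and 23.5 CPM, against 8.89 to 11.9 CPM (median 10.4) and 13 and 21.3 CPM with the empty vector (1.02 ± 0.12, edgeR BH-adjusted p = 0.00243). IFIT2 had 237 and 259 CPM, against 111 to 152 CPM (median 140.2) and 179.8 and 299 CPM with the empty vector (0.89 ± 0.11, edgeR BH-adjusted p = 0.00308). IFIT2 was above the other knockouts in both CDK1 KO libraries, but the empty vector library of 96 h was higher still. The same order held for IFIT1, with 77.8 and 86.7 CPM against 35.9 to 54.6 CPM and 65.4 and 109.5 CPM, and for IFIT3, with 234 and 274 CPM against 134 to 189 CPM and 221 and 334 CPM.

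Other called members were ISG15 (0.80), MX1 (0.91), OAS1 (1.14), OAS2 (0.69), OAS3 (0.47), IRF1 (0.64), IRF7 (0.64) and SAMD9L (0.80). Not every member moved. BST2, a tether of budding virions, was at 0.10 ± 0.08. IFIT5 was at -0.36 ± 0.10 with 38.4 and 39.5 CPM in CDK1 KO against 45 to 56.8 CPM in the others, below all 6 others but not called (edgeR BH-adjusted p = 0.0686).

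**Figure D4:**
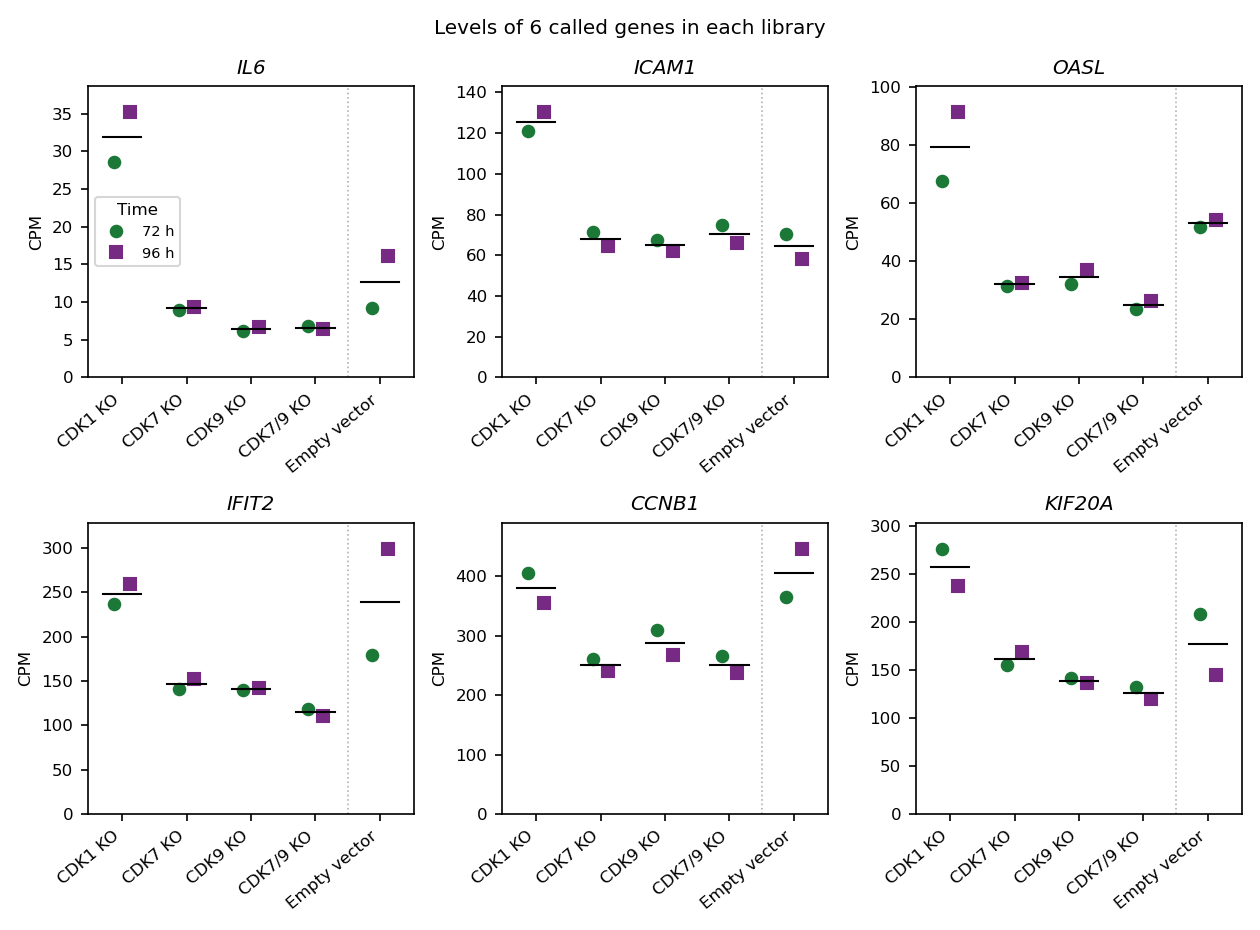
CPM of IL6, ICAM1, OASL, IFIT2, CCNB1 and KIF20A in each library at 72 h (circles) and 96 h (squares), with the mean of each genotype as a line. IL6 and ICAM1 are highest in CDK1 KO at both times, while IFIT2 and CCNB1 are highest in the empty vector library of 96 h, at 299 and 446 CPM.

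The partners and regulators of CDK1 and the genes of G2 and mitosis formed the next group. Of 25 cyclins, activators and inhibitors of CDK1, 7 were called higher and none lower (median 0.19). Of 64 genes of G2 and mitosis, 18 were called higher and none lower (median 0.26). All 6 other knockout libraries lay below both empty vector libraries for 34 of the 64 genes, beside 7.96% of all genes. Both CDK1 KO libraries lay above both empty vector libraries for 12 of the 64 (24.6% of all genes) and below both for 11 (21.8%). Each is a lower share than among all genes. Relative to the empty vector of the same time the median of the 64 was 0.12 in CDK1 KO at 72 h and -0.26 at 96 h, and between -0.21 and -0.13 (72 h) and between -0.48 and -0.35 (96 h) in the other knockouts. In bulk RNA, fewer cells in mitosis and less of these mRNAs per cell cannot be told apart. None of the 64 was called without the CDK1 KO library of 72 h (median 0.22), without that of 96 h (0.28) or scaled to the mitochondrial mRNAs, and without both CDK7/9 KO libraries 1 was. Of the 25 partners 1 was called without the CDK1 KO library of 72 h, 0 without that of 96 h, 4 without the CDK7/9 KO library of 72 h or that of 96 h, and 1 scaled to the mitochondrial mRNAs. Of the 64, 12 were called without the CDK7/9 KO library of 72 h or that of 96 h, and 34 without that of CDK7 KO at 96 h, which also gave 11 of the 25 partners.

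Many promoters of mitotic genes hold the CHR element TTTGAA. On either strand it was found in 33 of the 50 tested genes of G2 and mitosis with a promoter in the table, in 6 of the 13 called ones, in 9.90% of the tested genes matched and in 15.4% of all promoters. As for the other motifs, an excess over all genes is no test. The promoters of CCNB1 and KIF20A, also called, held no match. CCNB2 (chr15:59104896-59105195, plus strand) and PLK1 (chr16:23678639-23678938, plus strand) are shown as called genes with the element near the start (in capitals), and CDK1 (chr10:60778081-60778380, plus strand) as the targeted gene.
CCNB2: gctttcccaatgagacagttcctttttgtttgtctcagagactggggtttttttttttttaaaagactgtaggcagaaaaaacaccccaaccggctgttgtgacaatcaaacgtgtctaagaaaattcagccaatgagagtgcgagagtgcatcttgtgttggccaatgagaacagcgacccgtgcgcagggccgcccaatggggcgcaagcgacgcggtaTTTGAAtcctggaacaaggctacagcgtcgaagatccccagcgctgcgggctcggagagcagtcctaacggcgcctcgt
PLK1: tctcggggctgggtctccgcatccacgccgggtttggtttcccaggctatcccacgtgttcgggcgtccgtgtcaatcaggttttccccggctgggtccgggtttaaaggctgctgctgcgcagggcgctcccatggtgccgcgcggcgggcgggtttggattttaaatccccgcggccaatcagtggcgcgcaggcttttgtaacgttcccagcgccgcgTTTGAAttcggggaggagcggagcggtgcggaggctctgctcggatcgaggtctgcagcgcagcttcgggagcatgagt
CDK1: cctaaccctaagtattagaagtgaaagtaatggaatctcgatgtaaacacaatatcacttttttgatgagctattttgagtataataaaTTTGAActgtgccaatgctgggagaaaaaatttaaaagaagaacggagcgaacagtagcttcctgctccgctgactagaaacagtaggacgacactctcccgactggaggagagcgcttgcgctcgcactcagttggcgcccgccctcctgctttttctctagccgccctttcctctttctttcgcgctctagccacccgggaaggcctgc

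CCNB1, the mitotic cyclin that binds CDK1, had 405 and 356 CPM in CDK1 KO, against 237 to 309.5 CPM (median 263) in the other knockouts and 365 and 446 CPM with the empty vector (0.53 ± 0.08, edgeR BH-adjusted p = 0.00702). CCNB2 had 112 and 98.8 CPM, against 65.8 to 80.8 CPM (median 71.6) and 92.1 and 90.5 CPM with the empty vector (0.55 ± 0.07, edgeR BH-adjusted p = 0.00431). For both cyclins CDK1 KO was above all the other knockouts. CCNB1 overlapped with the empty vector and CCNB2 was above it. The mitotic kinase PLK1 had 208 and 186 CPM, against 113 to 148 CPM (median 128) and 186 and 138 CPM with the empty vector (0.60 ± 0.09). CDC20, which activates the anaphase-promoting complex, rose by 0.43 and the phosphatase gene CDC25B by 0.26, while CDC25C was at 0.46 ± 0.12 and cyclin A2 (CCNA2) at 0.20 ± 0.08, neither called. Among the mitotic genes proper, the kinesin KIF20A had 276 and 238 CPM in CDK1 KO, against 120.5 to 169 CPM (median 139) and 209 and 145 CPM with the empty vector (0.85 ± 0.11, edgeR BH-adjusted p = 0.00398). It was 1 of the 12 with both CDK1 KO libraries above both empty vector libraries. Among others, KIF20A and the CSF2 gene given above lie on 5q distal to CDK7, and CCNB1 lies close to CDK7 on its centromere side. In this comparison the 510 tested genes of distal 5q had a median of 0.10. Of them 29 were called higher and 1 lower, beside 2.9% and 1.13% of all genes. The part of the arm in these rises, or in those of any other gene named here that lies on it, was not tested. The kinesin KIF4A rose by 0.50, the kinesin KIF2C by 0.48, the securin gene PTTG1 by 0.52 and the aurora kinase gene AURKA by 0.49.

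Of 52 genes of DNA replication and E2F targets, 1 was called higher, TK1 (0.26), and 1 lower, with a median of -0.05. Each was 1.92% of the list, beside 2.9% of all genes called higher and 1.13% lower. Of 32 genes of homologous recombination and the Fanconi pathway, FANCC (-0.36) and RAD54L (-0.51) were called lower and none higher. They were 6.25% of the list, beside 1.13% of all genes. Among 21 other cell cycle kinases and cyclins CDK18 rose (0.99) and CDK4 fell (-0.30), each 4.76% of the list. None of the 30 genes of P-TEFb and elongation, of the 12 RNA polymerase II subunits, of the 24 of the integrated stress response or of the 18 of heat shock was called. Of 9 genes of TFIIH and its kinase ERCC2 was lower (-0.38). With 4.03% of all genes called, lists this small can hold 0 calls without differing from all genes.

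Stress-induced and immediate-early genes rose in part. Of 28 immediate-early genes 5 were called higher and none lower (median 0.31), but 1 without the CDK1 KO library of 72 h, 0 without that of 96 h, 2 and 3 without CDK7/9 KO at 72 and 96 h, and 9 and 10 without CDK7 KO at 72 and 96 h. ATF3, a stress-induced transcription factor, had 26.9 and 37.7 CPM in CDK1 KO, against 9.19 to 13.7 CPM (median 12.9) and 14.9 and 13.6 CPM with the empty vector (1.41 ± 0.11, edgeR BH-adjusted p = 0.000474). EGR1, a zinc finger transcription factor of the growth factor response, had 171 and 212 CPM, against 58.8 and 51.3 CPM in CDK7 KO, 111 and 118 CPM in CDK9 KO and 59.9 and 68.6 CPM in CDK7/9 KO (1.29 ± 0.28, edgeR BH-adjusted p = 0.0369). All 6 lay below CDK1 KO, with CDK9 KO nearest and the genotypes with a CDK7 knockout lowest. The part of the chromosome arms of the targeted genes in such levels was not tested. FOSB (0.92), DUSP1 (0.79) and EGR2 (1.87) were the other called members. Of 30 p53 targets 3 were called higher, GADD45A (1.07), PLK2 (0.45) and BTG2 (1.82). GADD45A, a stress-induced protein that inhibits the CDK1 and cyclin B complex, had 115 and 166 CPM, against 57.0 to 70.2 CPM (median 69.3) and 70.5 and 104 CPM with the empty vector. CDKN1A, which encodes the kinase inhibitor p21, was at 0.19 ± 0.09 and not called (edgeR BH-adjusted p = 0.279).

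Of the 12 largest rises at a mean of 10 CPM or more, 6 belong to none of these groups. The secreted cystatin genes CST1 and CST4, inhibitors of cysteine proteases, had 66.1 and 71.7 CPM and 31.0 and 34.9 CPM in CDK1 KO, against 19.3 to 29.6 CPM and 9.32 to 19.3 CPM in the others. FLG, the epidermal filaggrin gene, had 31.5 and 34.1 CPM, against 7.82 to 17.4 CPM (median 10.8) and 12.5 and 5.57 CPM with the empty vector (1.45 ± 0.23, edgeR BH-adjusted p = 0.00881). The complement gene C3 had 19.1 and 27.1 CPM, against 7.70 to 10.7 CPM (median 8.66), and the TNF family ligand gene TNFSF15 had 65.7 and 79.4 CPM, against 26.3 to 33.2 CPM (median 29.2). SYNPO, which encodes an actin-associated protein, had 47.8 and 45.2 CPM, against 14.8 to 26.0 CPM and 31.0 and 25.8 CPM with the empty vector. In all 6 of these genes both CDK1 KO libraries lay above all 6 other knockout libraries and both empty vector libraries. Of 33 collagen, laminin and integrin genes 5 rose, among them LAMB3 (0.43), COL6A1 (0.46), COL6A2 (0.59) and COL6A3 (0.64), while COL13A1 (-0.57) and LAMA3 (-0.62) fell.

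The falls were smaller and many lay on the chromosome arm of the targeted gene. Of the 185 called falls with a position in the annotation, 56 (30.3%) lay on 10q distal to CDK1, where 404 of the tested genes lie (2.67% of those with a position). Of these 404 genes 304 were below 0, with a median of -0.19. On 10q between the centromere and CDK1 the median of 64 genes was -0.08 with 2 falls, and on 10p the median of 152 genes was -0.06 with 5 falls. In steps of 10 Mb from CDK1 towards the end of the arm the median was -0.13, -0.19, -0.28, -0.16, -0.20, -0.19, -0.21 and -0.26, and in the first 10 Mb on the other side it was -0.09. The median of the distal genes was -0.20, -0.18 and -0.18 against CDK7 KO, CDK9 KO and CDK7/9 KO. Scaling to the mitochondrial mRNAs, which shifts all genes up, brought the distal median to 0.08, still 0.19 below that of all genes, and left 0 called falls there. Without the CDK1 KO library of 72 h or that of 96 h there were also 0 called falls on the distal arm. For the 270 distal genes with a mean of 10 CPM or more, the median log2 ratio to the empty vector of the same time was -0.19 and -0.33 in CDK1 KO at 72 and 96 h, and between -0.15 and 0.02 in the other knockouts. In CDK1 KO it was also -0.11 and -0.28 on 10q between the centromere and CDK1, and -0.02 and -0.24 on 10p. The low value at 96 h was thus not particular to the distal arm.

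**Figure D5:**
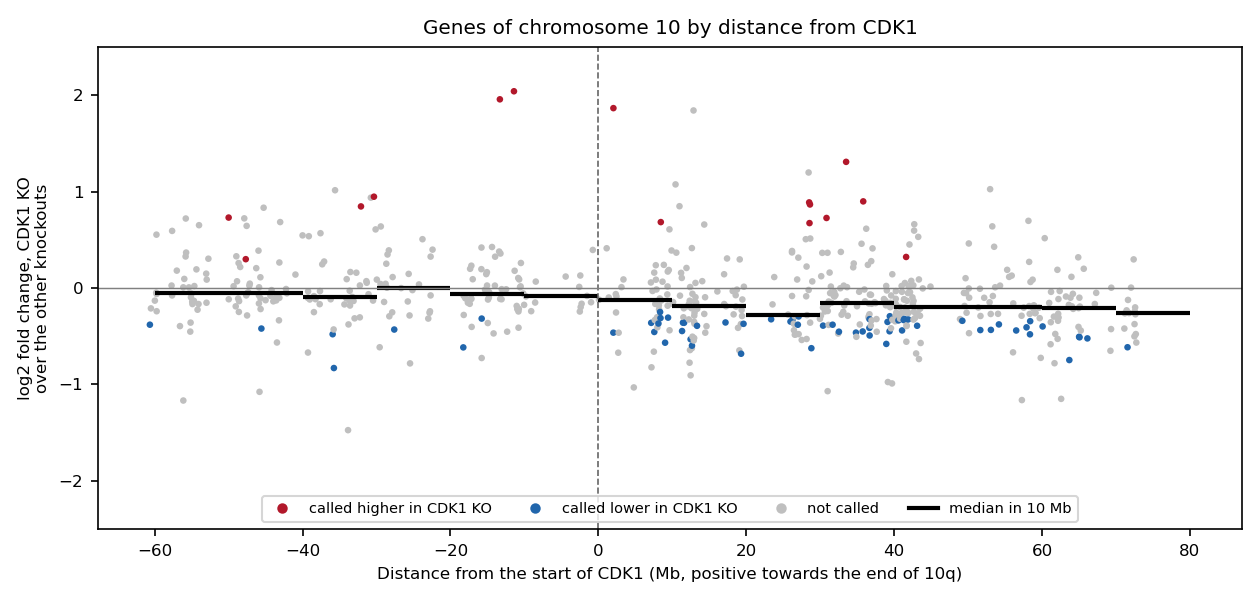
log2 fold change in CDK1 KO over the other knockouts of 620 tested genes of chromosome 10 other than CDK1, by distance from the start of CDK1 in Mb, with called genes in red (higher) and blue (lower) and the median of each 10 Mb as a black line. The medians lie between -0.28 and -0.13 on the distal side.

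Named falls on the distal arm included COL13A1, which encodes a transmembrane collagen, with 301 and 250.3 CPM in CDK1 KO, against 338 to 473 CPM (median 405) in the others (-0.57 ± 0.08, edgeR BH-adjusted p = 0.00604). The membrane repair gene MYOF had 1069 and 1047 CPM, against 1304 to 1575 CPM (-0.45 ± 0.07, edgeR BH-adjusted p = 0.00992), with 1189.6 and 954 CPM in the empty vector libraries. Both lay below all 6 other knockouts. LHPP, a phosphatase gene also on that arm, fell by 0.75 on the log2 scale. Not all distal genes followed. There were 9 called rises among the 404, EGR2, NFKB2, IFIT1, IFIT2 and IFIT3 among them.

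Elsewhere in the genome, the largest fall of genes with a mean of 10 CPM or more was that of LDAH, a lipid droplet hydrolase gene, with 8.08 and 7.49 CPM in CDK1 KO, against 13.1 to 21.1 CPM (median 18.1) and 10.2 and 12.1 CPM with the empty vector (-1.16 ± 0.19, edgeR BH-adjusted p = 0.00992). LRP8, a receptor of reelin, had 47.9 and 41.1 CPM, against 65.2 to 85.3 CPM (median 74.7) and 64.3 and 42.2 CPM with the empty vector (-0.76 ± 0.10, edgeR BH-adjusted p = 0.004). Both genes were below all 6 other knockouts, but LRP8 was level with the empty vector at 96 h. Further falls named by the rule were MFSD3 (-1.0), TMEM218 (-0.85), THNSL1 (-0.83), C6orf120 (-0.77), DNPH1 (-0.76), ICA1 (-0.75) and ZSWIM7 (-0.72), all under 30 CPM in every library.

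Against each other knockout by itself, in a model with a term for each genotype over the same 8 libraries, 2621 genes differed from CDK7 KO (15.7%, 1445 higher and 1176 lower), 4990 from CDK9 KO (30%, 2596 and 2394) and 5051 from CDK7/9 KO (30.3%, 2650 and 2401). The 3 comparisons share the CDK1 KO libraries. The share of all genes called higher was 8.67%, 15.6% and 15.9%, and lower 7.06%, 14.4% and 14.4%. The NF-kB list had 23 of 25 called higher in each, with medians of 1.02, 0.95 and 1.27. The interferon-stimulated list had 23, 25 and 24 of 35 called higher and 1 lower in each, and G2 and mitosis 32, 41 and 49 of 64. With mitochondrial mRNAs as the scale the split was 10438 higher and 187 lower against CDK9 KO and 10211 and 211 against CDK7/9 KO, where the median of all genes moved to 0.47 and 0.46. Against CDK7 KO 863 genes were called on that scale and 1274 with DESeq2. With the empty vector libraries in the fit the 3 counts were 256, 1555 and 1536. Without the CDK1 KO library of 96 h the counts were 780, 2574 and 2493, without that of 72 h 1293, 3092 and 3114, without that of CDK7 KO at 96 h the first was 1577, and without those of CDK7/9 KO at 72 or 96 h the third was 2662 or 2284.

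Other lists differed by partner. Of 26 genes of cholesterol and fatty acid synthesis 12 were lower and 1 higher in CDK1 KO than in CDK7 KO (median -0.17), and 18 were higher and 1 lower than in CDK9 KO (median 0.33). Against CDK7/9 KO 8 were higher and 3 lower, and against all 6 libraries together none was called, with a median of 0.04. SCD, the stearoyl-CoA desaturase gene, had 624 and 436 CPM in CDK1 KO, 1239 and 837 CPM in CDK7 KO, 486 and 351 CPM in CDK9 KO and 859 and 505 CPM in CDK7/9 KO (-0.96 ± 0.06 against CDK7 KO, edgeR BH-adjusted p = 4.11e-10). CDK1 KO was thus below CDK7 KO and above CDK9 KO at each time. Of 24 YAP and TEAD targets 10 were lower and 4 higher than in CDK7 KO (median -0.12), and 13 were higher and 4 lower than in CDK9 KO (median 0.18). The mitochondrially encoded mRNAs were lower in CDK1 KO than in CDK9 KO (12 of 13 called) and CDK7/9 KO (13 of 13), and 1 of 13 was called, higher, against CDK7 KO.

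Rises and falls against a single knockout were ranked among called genes with a mean of 10 CPM or more over the 8 libraries. Genes at lower levels could have larger fold changes. Within this limit the largest rises against CDK7 KO were those of the arrestin family gene ARRDC4, IL6, EGR1 and TXNIP. ARRDC4 had 11.3 and 21.3 CPM in CDK1 KO, against 2.01 and 6.80 CPM in CDK7 KO (1.92 ± 0.18, edgeR BH-adjusted p = 1.04e-07), and TXNIP, the thioredoxin-interacting protein gene, had 300.3 and 436 CPM, against 34.9 and 237 CPM (1.69 ± 0.28, edgeR BH-adjusted p = 0.000261). Both were higher at 96 h than at 72 h in every group, and the CDK7 KO library of 72 h was the lowest. The cadherin gene CDH4 had 72.4 and 65.5 CPM, against 134 and 131 CPM in CDK7 KO (-0.94 ± 0.06), and 72.0 and 67.0 CPM in CDK9 KO. Within the same limit the placental alkaline phosphatase gene ALPP led against CDK9 KO. It had 23.6 and 24.0 CPM in CDK1 KO, against 3.80 and 4.76 CPM in CDK9 KO (2.48 ± 0.13, edgeR BH-adjusted p = 2.3e-11) and 6.58 and 5.85 CPM in CDK7/9 KO. In CDK7 KO it was 18.9 and 17.3 CPM, near CDK1 KO. IL6, FLG (1.88) and the aquaporin gene AQP3 (1.6) followed.

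Among the falls, SEC31B, which encodes a coat protein of transport vesicles, had 10.2 and 8.98 CPM in CDK1 KO, against 21.3 and 27.1 CPM in CDK9 KO (-1.34 ± 0.17, edgeR BH-adjusted p = 4.08e-06) and 24.2 and 23.6 CPM in CDK7/9 KO (-1.31 ± 0.17), while CDK7 KO had 12.2 and 6.28 CPM. PCYOX1L (-1.28) and the dynein gene DNAH1 (-1.20) were lower than in CDK9 KO, and PAQR8 (-1.32), MFSD3 (-1.26) and LDAH (-1.37) than in CDK7/9 KO. At a mean of 10 CPM or more, the largest fold change against CDK7/9 KO, 4.65, was that of the pseudogene BTF3P10. It had 64.8 and 53 CPM in CDK1 KO, 51.8 and 59.5 CPM in CDK7 KO, 63.5 and 2.94 CPM in CDK9 KO and 2.56 and 2.28 CPM in CDK7/9 KO. Reads of a pseudogene can be shared with its parent gene, so this value is uncertain.

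Whether the difference from the other knockouts changed between 72 and 96 h was asked with an interaction term over the same 8 libraries, with 1 CDK1 KO library at each time. No gene of 17461 was called by edgeR (0%), 122 had an unadjusted p under 0.05, and no other tool was run on that question. Within CDK1 KO, IL6 and CSF2 were higher at 96 h and CCNB1 and KIF20A at 72 h, by the levels given above, with 1 library at each time.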

How the data were processed

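Raw read counts per gene were taken as the authors deposited them, in 1 table for all libraries. Per the labels' protocols, 3' end libraries (QuantSeq FWD) were made from RNA of high integrity and sequenced on a HiSeq2500. Per the submitters' processing notes, FastQC and STAR 2.7.10a were used with GRCh38. The sources used here do not name the counting tool, its annotation or its use of strand and molecular identifiers, so overlapping, antisense and near-identical genes may share counts. Depth was 16985219 to 22417327 counts in the 8 knockout libraries, and precision is limited by 1 library per genotype and time.

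From the counts, edgeR 4.0.16 in R 4.3.3 gave TMM factors, a filter on low counts (filterByExpr, minimum count 10, minimum total 15) and quasi-likelihood F tests with Benjamini-Hochberg adjustment at 0.05. The comparison of CDK1 KO with the other knockouts used a term for CDK1 KO and a term for time (5 residual degrees of freedom). The comparisons with each other knockout used a term for each genotype and for time over the same 8 libraries (3 residual degrees of freedom), and the difference between times an interaction term (4 residual degrees of freedom). CPM are scaled by TMM over 10 libraries with the empty vector. Standard errors are the log2 fold change over the square root of F. The scripts were tested on simulated counts.

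Members and lists were chosen with earlier results of these data known. Genes named were the 12 largest rises and 12 largest falls called, with a mean of 10 CPM or more and CDK1 KO beyond all 3 others at both times. In each single comparison they were the 4 largest of each direction at the same minimum of 10 CPM. There CDK1 KO had to be beyond only the knockout compared at both times. The 4 members of each list with the smallest adjusted p were named too. A few genes that these rules or lists hold are not reported here. Other list members and the genes of the closing section were named after their values were seen. Positions are those of GENCODE 29 on GRCh38, matched by symbol for 15162 of the 16658 genes tested. Promoters are from RefSeq on GRCh38.p14, and their motifs were chosen after the called genes and the matches of longer forms of the first pair had been seen. Alternatives were median-of-ratios factors, no filter, DESeq2 1.42.0, scaling to the 13 mitochondrial mRNAs, no time term, each library or genotype left out, and genotype terms over 8 and 10 libraries.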

Additional observations from a re-analysis of the deposited data

How the results depend on the processing

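Under the alternatives, 0 of the 80 called genes picked for naming changed direction against the other knockouts, and 79 stayed called with median-of-ratios factors, 79 with no filter, 78 of 78 with DESeq2 and 35 scaled to the mitochondrial mRNAs. The cause of the changes that follow was not tested.

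Against the other knockouts the 671 calls became 1736 with no filter, 1108 with DESeq2, 208 scaled to the mitochondrial mRNAs, 4932 and 1519 with a genotype term over 8 and 10 libraries, and 5737, 235 and 71 without both libraries of CDK7 KO, CDK9 KO and CDK7/9 KO. Leaving out 1 library gave 2 to 1879. Against CDK7 KO the 2621 calls became 1274 with DESeq2, 863 scaled to the mitochondrial mRNAs, 1592 without the time term and 256 with the empty vector in the fit, and 780 to 3229 without 1 library. Against CDK9 KO the 4990 calls became 2976, 10625 and 1555 with DESeq2, the mitochondrial scale and the empty vector in the fit, and 2574 to 5471 without 1 library. Against CDK7/9 KO the 5051 calls became 2891, 10422 and 1536 in those settings, and 2284 to 5628 without 1 library. For the difference between times, no filter gave 5 calls in place of 0.

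The labels give no replicate numbers, and time is the only pairing, which is the block of the main model. With no replicate block (no time term) 856 genes were called against the other knockouts, 595 higher and 261 lower, 4009 against CDK9 KO and 4010 against CDK7/9 KO. A library that is alone in its group is assumed to vary like the others.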

Other observations

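Genes outside the lists and the rule for naming, are given here, picked after their values were seen. The keratin genes KRT17 and KRT14 rose at low levels. Keratins among the markers above were lower still and did not all rise. The highest CPM in CDK1 KO and in the others was 0.053 and 0.050 for KRT5 and 0 and 0.050 for KRT6A. For KRT16 it was 0.63 and 0.30. KRT17 had 6.81 and 11.3 CPM in CDK1 KO, against 0.955 to 1.59 CPM (median 1.27) in the other knockouts and 1.12 and 3.56 CPM with the empty vector (2.79 ± 0.17, edgeR BH-adjusted p = 0.000163), and KRT14 had 1.32 and 1.97 CPM, against 0.100 to 0.248 CPM (3.02 ± 0.29). More inflammatory genes rose, among them the acute phase gene SAA1, with 14.7 and 19.8 CPM against 3.12 to 5.37 CPM, and the cytokine gene IL32, with 6.34 and 8.45 CPM against 1.81 to 2.33 CPM. MAP3K14, the kinase of the non-canonical NF-kB pathway, had 64.6 and 69.8 CPM, against 31.9 to 39.1 CPM (median 34.6) and 43.9 and 33.3 CPM with the empty vector (0.95 ± 0.07, edgeR BH-adjusted p = 0.000336). The inhibitor genes NFKBIE (0.86), TNIP1 (0.60) and CYLD (0.27) were called higher too. MAP3K14 and KRT17 were the 2 of the 80 called genes picked for naming whose call held under all 18 alternatives run.

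The nucleic acid sensing adaptor gene STING1 had 49.3 and 56.7 CPM in CDK1 KO, against 27.2 to 39.4 CPM in the others (0.75 ± 0.12), the death ligand gene TNFSF10 had 18.3 and 16.8 CPM, against 7.68 to 10.2 CPM (0.99 ± 0.12), and CCL5 had 2.43 and 5.52 CPM, against 0.853 to 1.82 CPM (1.55 ± 0.32). LAPTM5, known best from leukocytes, rose as well, with 192 and 176 CPM against 62.6 to 103 CPM. The 3 immune markers that could be tested also had fold changes above 0 (median 0.68), with LYZ called higher. PTPRC, MS4A1 and TYROBP were as low as given above. On distal 10q, CHUK, which encodes the kinase IKK-alpha, had 58.7 and 55.8 CPM, against 66.1 to 72.9 CPM (-0.29 ± 0.06). MMS19 (-0.49) and ALDH18A1 (-0.46) on that arm were called lower too. The matrix protein gene THSD4 had 34.4 and 31.2 CPM in CDK1 KO, against 48.1 to 56.1 CPM in the others and 36.7 and 31.9 CPM with the empty vector, which was level with CDK1 KO.

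The arms of the other targeted genes were measured in the same way. Of 510 tested genes on 5q distal to CDK7, 140 were higher and 12 lower in CDK1 KO than in CDK7 KO (median 0.16), beside 8.67% and 7.06% of all genes. The median was 0.16 against CDK7/9 KO and 0.01 against CDK9 KO. For 63 genes on 5q between the centromere and CDK7 the order differed. There the median was 0.02 against CDK7 KO, 0.17 against CDK7/9 KO and 0.13 against CDK9 KO. Of 167 on 9q distal to CDK9, 66 were higher and 9 lower than in CDK9 KO (median 0.19), beside 15.6% and 14.4% of all genes. Their medians were 0.16 against CDK7/9 KO and 0.04 against CDK7 KO. For 276 genes on 9q between the centromere and CDK9 the medians were 0.06 against CDK9 KO, 0.06 against CDK7/9 KO and 0.01 against CDK7 KO.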
